A study of Homo sapiens with 12 samples.

Results

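The genes of the human histone clusters were followed, by histone type, in the RNA of MDA-MB-231 cells after knockdown of NONO or of PKM2. A gene was a member if either deposited table named it with the older cluster symbols (HIST1H to HIST4H) or with the newer ones (H1-, H2AC, H2BC, H3C or H4C followed by a number) and if it was not a pseudogene. The rule matched 93 names, 19 of them pseudogenes, and left 74 members of the 60736 genes in either table. They were 10 H1, 17 H2A, 18 H2B, 14 H3 and 15 H4 genes. The annotation placed 55 of them in cluster 1 on chromosome 6, 11 in cluster 2 and 3 in cluster 3 on chromosome 1, and 1 (H4-16) on chromosome 12. The remaining 4 are H1 genes that share the name pattern but lie outside the clusters, and of these H1-10 is described. The genes were picked because earlier results of these libraries showed many of them higher after PKM2 knockdown. Their values in both knockdowns are therefore a description, and no test is offered for them as a group.

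MDA-MB-231 is a human triple-negative breast cancer cell line. The NONO experiment had 3 negative control (NC) and 3 NONO knockdown libraries, and the PKM2 experiment had 3 NC libraries of its own and 3 PKM2 knockdown libraries, all labelled with a wild-type genotype and all transfected with siRNA. NONO is a DNA- and RNA-binding paraspeckle protein, PKM2 is an isoform of the glycolytic enzyme pyruvate kinase M, and the study asked which genes the NONO/PKM2 complex controls. RNA was selected by its poly(A) tail before sequencing. Nothing in the sources says that the 3 libraries of a group came from separate cultures, so any p-value here measures only the spread between these libraries, which may be technical.

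Summed over genes, the libraries held 19861762 to 20981712 estimated counts in the NONO experiment and 24097948 to 28455268 in the PKM2 experiment. NONO was at 391, 358 and 369 CPM (counts scaled to a common library size by the TMM method) in NC and at 61.8, 64.3 and 61.9 CPM in NONO knockdown libraries. PKM, counted for the whole gene and not for the PKM2 isoform, was at 2280, 2210 and 2320 CPM in NC and at 218, 228 and 234 CPM in PKM2 knockdown libraries. Both targets were thus low in every library labelled as their knockdown. The mesenchymal marker VIM stood at 3810 to 5540 CPM, the receptor genes ESR1 and PGR stayed under 0.5 CPM and CDH1 at or near 0. ERBB2, listed as a low marker, nevertheless reached 36.3 to 80.3 CPM. Only 3 of the 5 listed low markers were under 1 CPM in every NC library, so EPCAM, also listed, was not. The 2 low markers tested in the PKM2 experiment were lowered after knockdown, as were 34.7% of all genes tested. NC replicate 1 of the NONO experiment and PKM2 knockdown replicate 3 stood furthest from the other libraries of their group.

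Histones package DNA. An H3-H4 tetramer and a pair of H2A-H2B dimers form the core of the nucleosome, and the linker histone H1 binds where DNA enters and leaves it. The clustered genes are expressed mainly in S phase, when new DNA must be packaged, and their mRNAs are unusual in that most end in a conserved stem-loop instead of a poly(A) tail. The stem-loop is bound by SLBP, and a complex with the U7 snRNP (LSM10, LSM11), ZNF473, CASP8AP2 (FLASH) and the nuclease CPSF3 cuts the transcript after it, while NPAT activates transcription at the histone locus. Several clustered genes can also give longer transcripts that read past the stem-loop and carry a poly(A) tail, and selection by poly(A) tail favors those over the stem-loop form.

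The stem-loop sites of 6 members are shown because the annotated transcripts described further on differ in whether they stop at this element or pass it. Capitals mark the 16 bases of the stem-loop, and the sites were read from GENCODE 29 transcripts and placed on GRCh38.
H2AC6 (chr6:26124669-26124684, plus strand): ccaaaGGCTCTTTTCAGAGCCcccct
H2BC5 (chr6:26158587-26158602, plus strand): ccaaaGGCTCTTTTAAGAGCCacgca
H2BC4 (chr6:26123472-26123487, minus strand): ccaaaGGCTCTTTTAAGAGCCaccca
H3C10 (chr6:27810516-27810531, plus strand): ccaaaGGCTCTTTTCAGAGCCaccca
H4C8 (chr6:26285131-26285146, minus strand): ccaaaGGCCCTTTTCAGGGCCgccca
H4C14 (chr1:149833032-149833047, plus strand): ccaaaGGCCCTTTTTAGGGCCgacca
The H2AC6 and H3C10 sites carried the form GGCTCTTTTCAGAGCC, found at 18 of the 32 sites. The H4C8 site carried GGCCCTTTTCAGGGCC, found at 5 sites, the H4C14 site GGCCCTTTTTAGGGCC, found at 3, and the H2BC5 and H2BC4 sites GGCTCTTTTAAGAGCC, found at 5. A stem-loop was matched in an annotated transcript of 31 of the 70 clustered members, and 32 of the others had only coding sequence annotated.

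The stretch from 150 bases before to 20 bases after the RefSeq start (GRCh38.p14) is shown for 6 members that carried most of the signal of their type or had a high fold change. Capitals mark the TATA box (letters TATAAA) and the CCAAT box, the latter on either strand. They also mark the octamer ATTTGCAT on either strand in H2A and H2B genes, and the H1 box AAACACA in the H1 gene.
H1-2 (chr6:26056451-26056620, minus strand): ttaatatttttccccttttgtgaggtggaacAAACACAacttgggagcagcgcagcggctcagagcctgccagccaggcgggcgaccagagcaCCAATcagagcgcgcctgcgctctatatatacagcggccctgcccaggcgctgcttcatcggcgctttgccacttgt
H2AC6 (chr6:26124022-26124191, plus strand): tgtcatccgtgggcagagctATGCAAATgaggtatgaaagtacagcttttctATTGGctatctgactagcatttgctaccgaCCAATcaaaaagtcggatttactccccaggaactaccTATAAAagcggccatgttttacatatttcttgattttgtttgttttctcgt
H2AC18 (chr1:149842731-149842900, minus strand): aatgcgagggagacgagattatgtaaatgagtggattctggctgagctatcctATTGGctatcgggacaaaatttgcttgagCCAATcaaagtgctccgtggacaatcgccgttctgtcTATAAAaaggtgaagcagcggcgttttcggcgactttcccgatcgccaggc
H2BC12 (chr6:27146839-27147008, minus strand): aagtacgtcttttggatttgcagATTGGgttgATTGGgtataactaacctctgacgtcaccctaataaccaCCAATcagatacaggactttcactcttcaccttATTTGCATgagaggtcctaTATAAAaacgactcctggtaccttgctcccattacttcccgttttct
H2BC5 (chr6:26157971-26158140, plus strand): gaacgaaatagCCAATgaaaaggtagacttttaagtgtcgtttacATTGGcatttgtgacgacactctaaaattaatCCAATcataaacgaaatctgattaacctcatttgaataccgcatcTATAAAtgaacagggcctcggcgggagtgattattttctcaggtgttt
H4C8 (chr6:26285515-26285684, minus strand): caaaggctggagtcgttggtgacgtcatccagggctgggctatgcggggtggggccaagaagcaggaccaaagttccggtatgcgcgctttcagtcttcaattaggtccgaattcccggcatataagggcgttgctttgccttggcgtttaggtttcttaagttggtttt
H2AC6 and H2BC12 hold an octamer in these letters, and H2AC18, H2BC5 and H4C8 do not. The counts of each motif over all members stand near the end, beside the share of all promoters.

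After PKM2 knockdown the clustered histone genes that could be tested were nearly all higher, and after NONO knockdown most of them did not pass the test. The summed level of the 70 clustered members was 113, 115 and 114 CPM in the NC libraries of the PKM2 experiment and 804, 838 and 899 CPM after PKM2 knockdown, a 7.45-fold ratio of means. In the NONO experiment the same sum was 48.6, 51.3 and 49.6 CPM in NC and 80.0, 77.8 and 76.9 CPM after knockdown, a log2 ratio of 0.65. The groups did not overlap in either experiment. As a share of all estimated counts, the clustered members went from 0.0118% to 0.0816% in the PKM2 experiment and from 0.00506% to 0.00769% in the NONO experiment. Levels are not compared across the experiments, because the gene models of 40 of the 74 members differ in length between their tables. In bulk RNA, fewer cells of a type and less RNA per cell cannot be told apart.

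In the PKM2 experiment 27 members passed the filter on low counts, and 23 of them were raised and 2 lowered at an adjusted p under 0.05 (edgeR quasi-likelihood test, Benjamini-Hochberg over all genes). The background was wide: of all 15524 genes tested, 68.4% were called, 33.6% raised and 34.7% lowered. The median log2 fold change of the tested members was 2.53, against -0.01 over all genes. Raised by more than 2-fold were 22 members, a class that held 6.96% of all tested genes. The groups of 23 members did not overlap with knockdown higher, as in 35.0% of all tested genes, and those of 2 did not overlap with knockdown lower, as in 36.9% (71.9% in either direction). H1-4 was the member lowered by more than 2-fold, a class of 13.6%. Since the choice of members used this contrast, nothing is read from these shares.

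In the NONO experiment 18 members passed the filter, 5 of them raised and 2 lowered, where 16.2% and 17.2% of the 14832 genes tested were raised and lowered and 33.4% were called in all. The tested members had a median of 0.35 on the log2 scale, against -0.01 over all genes, and ranged from -2.80 to 1.58. The 5 raised in the NONO experiment were H2AC6, H2AC19, H2BC5, H2BC12 and H4C14, and all 5 were also raised in the PKM2 experiment. The 2 lowered were H1-10 and H4C15. Raised by more than 2-fold were 3 members, as were 0.647% of all genes tested, and H4C15 was lowered by more than 2-fold, as were 1.93%. The groups of 7 members did not overlap with knockdown higher and those of 2 with knockdown lower, where 22.6% and 23.5% of all tested genes had such groups (46.1% in either direction).

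The filter decided much of what could be tested. Of the 27 members tested in the PKM2 experiment, 19 reached the minimum of 0.39 CPM in all 3 NC libraries, and of these 15 were raised and 2 lowered. The other 8 reached it in 3 libraries only after knockdown (H2BC17, H2BC18, H3C2, H3C14, H3C15, H4C9, H4C15 and H4-16), so they were bound to be higher there, while H1-4 and H3C3 reached it in 3 libraries only in NC. Of the 18 tested in the NONO experiment, 16 reached the minimum of 0.494 CPM in the 3 NC libraries, and 5 of them were raised and 2 lowered. Of the latter, H4C15 reached it in NC alone. H2BC11 and H3C10 reached it in 3 libraries only after NONO knockdown. The 47 members tested in neither experiment stayed low throughout. Of them, 21 were at 0 in every library, and the highest value in any library was 1.02 CPM (H2AC20). The clustered members not tested in the PKM2 experiment, 45 genes, summed to 77.6 ± 19.7 estimated counts per NC library (SD, n = 3) and 64.0 ± 17.9 after knockdown.

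**Figure D1:**
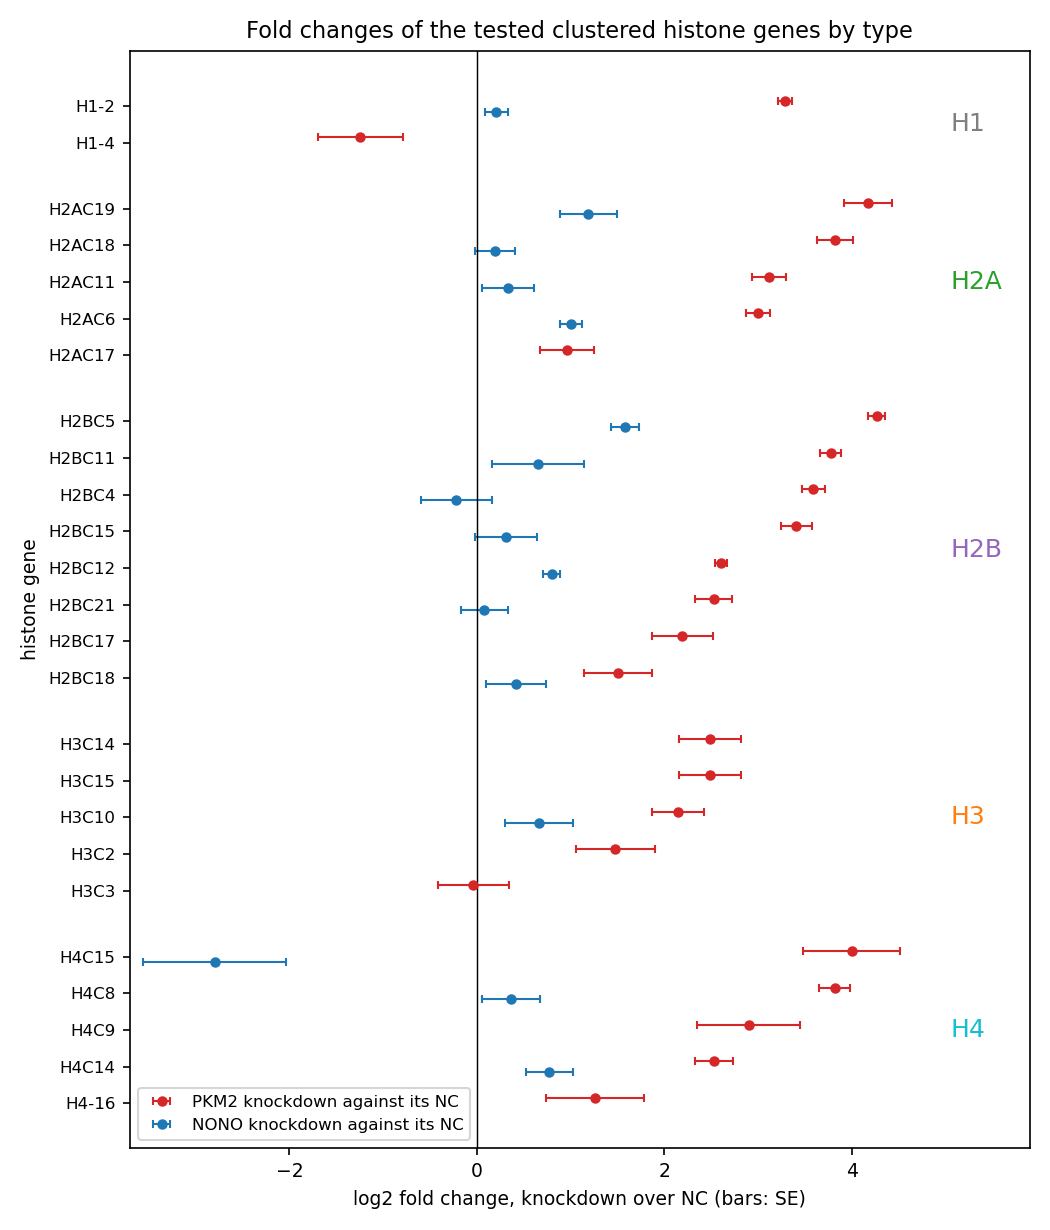
Log2 fold change of each tested member (x axis, points with standard error bars) after NONO and after PKM2 knockdown, grouped by histone type. After PKM2 knockdown the 25 clustered members have a median of 2.61 and reach 4.27 (H2BC5), and after NONO knockdown the 16 tested have a median of 0.39, with H4C15 at -2.80.

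Of the linker histone genes, H1-2 (HIST1H1C, ENSG00000187837, chr6:26055787-26056428 in GENCODE 29 on GRCh38) held nearly all of the clustered H1 signal. It was at 8.16, 8.42 and 7.09 CPM in NC and 73.2, 76.5 and 81.2 CPM after PKM2 knockdown which is 9.76-fold higher (log2 fold change 3.29 ± 0.08, SE). The NONO experiment had it at 6.22, 5.96 and 5.52 CPM in NC and 6.68, 6.76 and 7.02 CPM after knockdown (log2 fold change 0.21 ± 0.12). That difference was not called, although the libraries did not overlap.

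H1-4 (HIST1H1E, chr6:26156354-26157107) moved the other way at a low level. It was at 0.717, 0.675 and 0.388 CPM in NC and 0.166, 0.215 and 0.357 CPM after PKM2 knockdown, a mean of 16.3 against 6 estimated counts. The call (log2 fold change -1.24 ± 0.45) was lost without knockdown replicate 1 (-1.02), without knockdown replicate 2 (-1.15) and without NC replicate 2 (-1.15), H1-4 did not pass the filter without NC replicate 1, and DESeq2 did not call it. H1-4 was not tested in the NONO experiment, where it was at 0.552, 0.286 and 0.327 CPM in NC and 0.249, 0.305 and 0.305 CPM after knockdown. The other 4 clustered H1 genes were tested in neither experiment.

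H1-10 (H1FX, chr3:129314771-129316277), a divergent H1 variant encoded outside the clusters, fell in the NONO experiment. It was at 90.6, 107 and 81.5 CPM in NC and 63.0, 55.6 and 41.5 CPM after NONO knockdown (log2 fold change -0.80 ± 0.13). In the PKM2 experiment it was at 67.5, 72.4 and 73.1 CPM in NC and 73.5, 73.5 and 88.9 CPM after knockdown (log2 fold change 0.15 ± 0.08, no call), and without knockdown replicate 1 the value was 0.20 and H1-10 was called raised. The groups did not overlap in either experiment.

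The H2A genes were all raised where tested after PKM2 knockdown, 5 of 17, with a median of 3.12 on the log2 scale. Of all genes tested, 33.6% were raised. H2AC6 (HIST1H2AC, chr6:26124145-26139116) was at 4.61, 7.47 and 5.68 CPM in NC and 46.1, 45.3 and 49.9 CPM after PKM2 knockdown (log2 fold change 3.00 ± 0.13). After NONO knockdown it went from 7.58, 6.96 and 6.40 CPM to 15.7, 13.6 and 12.7 CPM (log2 fold change 1.00 ± 0.12). H2AC6 was thus raised in both experiments, with no overlap between groups in either.

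H2AC18 (HIST2H2AA3, chr1:149842188-149842736) and H2AC19 (HIST2H2AA4, chr1:149851061-149851624) are copies whose coding sequences of 393 bases are identical, so the split of reads between them is uncertain. H2AC18 was at 1.26, 2.66 and 3.07 CPM in NC and 34.1, 34.9 and 29.3 CPM after PKM2 knockdown (log2 fold change 3.82 ± 0.20). H2AC19 was at 2.12, 1.82 and 0.636 CPM in NC and 24.5, 24.5 and 33.9 CPM after PKM2 knockdown, with the highest H2A value of 4.18 ± 0.26. Their sum does not depend on the split and went from 3.85 ± 0.565 CPM to 60.4 ± 2.44 CPM (SD, n = 3), a log2 ratio of 3.97. H2AC18 was at 5.68, 5.13 and 4.66 CPM in NC and 3.91, 7.67 and 6.17 CPM after NONO knockdown, overlapping groups with a log2 fold change of 0.19 ± 0.22. H2AC19 was at 1.39, 2.64 and 3.06 CPM in NC and 7.71, 4.02 and 4.46 CPM after NONO knockdown (1.19 ± 0.30, raised, but not called without knockdown replicate 1, at 0.84). The sum of the pair went from 7.52 ± 0.387 CPM to 11.3 ± 0.596 CPM in that experiment, a log2 ratio of 0.59.

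H2AC11 (HIST1H2AG, chr6:27133042-27135291) was at 0.926, 0.875 and 1.34 CPM in NC and 8.58, 9.88 and 8.98 CPM after PKM2 knockdown (log2 fold change 3.12 ± 0.18). Its libraries in the NONO experiment overlapped, at 1.86, 1.05 and 1.54 CPM in NC and 2.05, 1.58 and 1.99 CPM after knockdown (0.34 ± 0.27, no call). H2AC17 (HIST1H2AM, chr6:27892757-27893149) had the smallest H2A value, 0.96 ± 0.29, from 0.887, 0.953 and 0.60 CPM in NC to 1.49, 1.72 and 1.55 CPM after PKM2 knockdown. The H2A genes together went from 11.4, 15.0 and 12.1 CPM to 116, 117 and 125 CPM after PKM2 knockdown, a log2 ratio of 3.22.

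**Figure D2:**
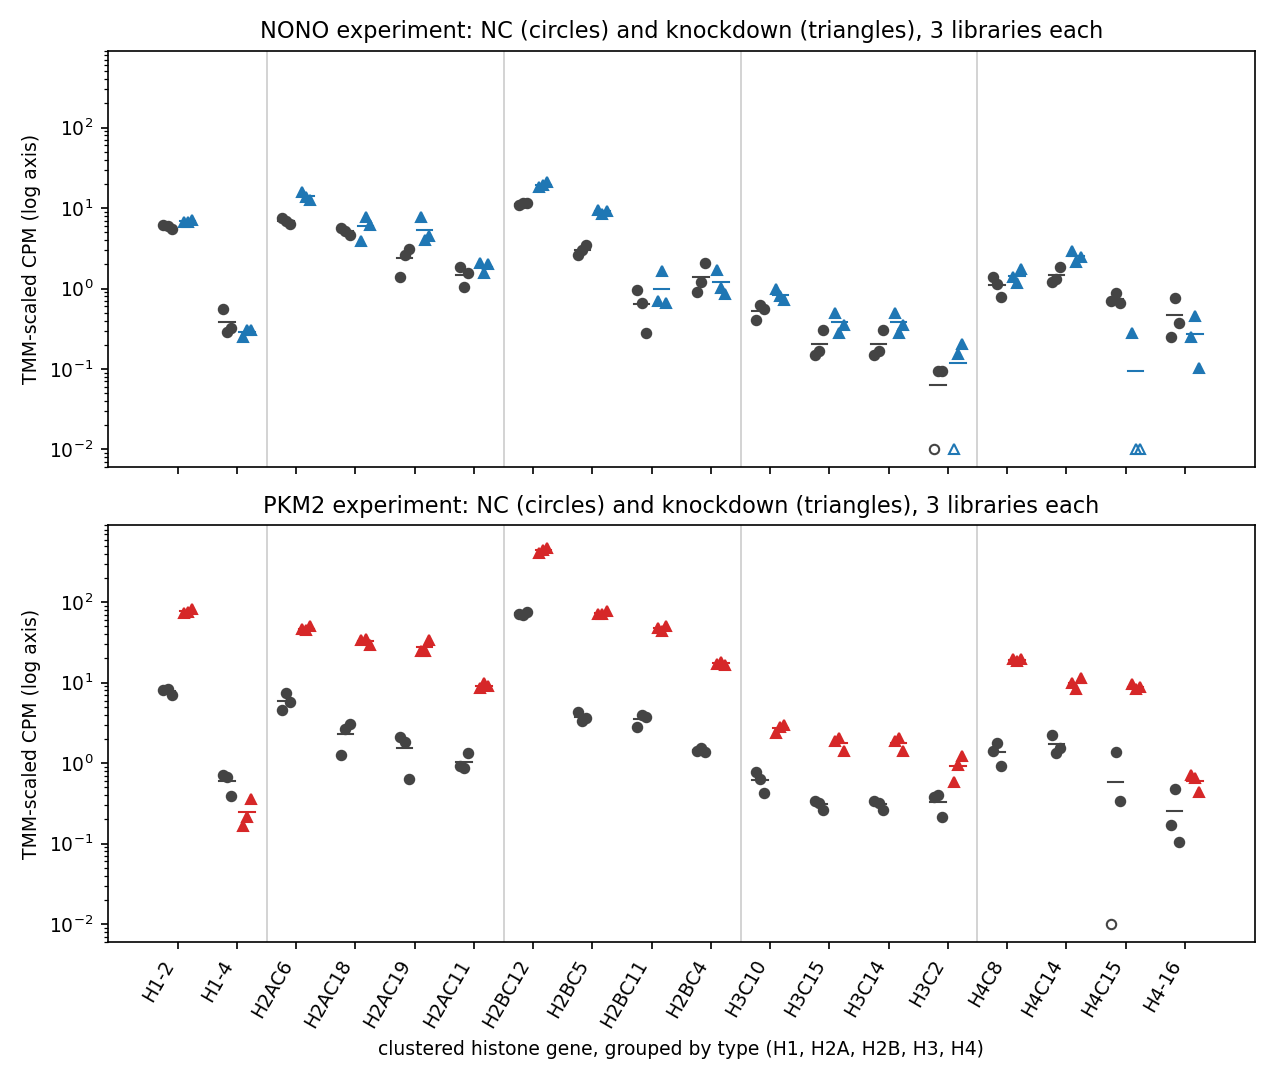
CPM (log axis) of 18 clustered members, up to 4 per histone type, with 1 point per library (circles NC, triangles knockdown, short lines the means, open points at the foot a CPM of 0) in the NONO experiment (top) and the PKM2 experiment (bottom). For H2BC5 in the PKM2 experiment the knockdown libraries lie at 71.1 to 77.2 CPM and its NC libraries at 3.38 to 4.37 CPM, while the groups of H4-16 overlap.

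H2B carried most of the clustered signal per length, and in the PKM2 experiment also by CPM. H2BC12 (HIST1H2BK, chr6:27146418-27146798) carried most of the H2B CPM. Per length, in TPM (transcript levels corrected for gene length), H2B held 74.4% of the clustered total in NC libraries of the PKM2 experiment, against 10.6% for H2A, 7.38% for H1, 5.20% for H4 and 2.44% for H3. After PKM2 knockdown H2B held 71.5%, H2A 14.5%, H1 9.59%, H4 3.63% and H3 0.784%. In NONO libraries H2B held 65.5% in NC and 71.4% after knockdown. H2BC12 alone gave 63.9% of the summed CPM in PKM2 NC libraries and 52.2% after knockdown. In the NONO experiment it gave 22.5% in NC and 24.9% after knockdown. All H2B genes there summed to 21.2 of 49.8 CPM in NC and 36.5 of 78.3 CPM after knockdown. Without H2BC12 the clustered sum still went from 41.0 ± 3.94 to 405 ± 16.4 CPM (SD, n = 3) in the PKM2 experiment, and from 38.6 ± 1.09 to 58.8 ± 2.91 CPM in the NONO experiment.

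H2BC12 was at 71.7, 69.7 and 76.5 CPM in NC and 408, 444 and 475 CPM after PKM2 knockdown, 6.09-fold higher (log2 fold change 2.61 ± 0.06). In the NONO experiment it was at 10.8, 11.5 and 11.4 CPM in NC and 18.1, 19.6 and 20.8 CPM after knockdown (0.80 ± 0.09, raised). Its model is 495 bases in the PKM2 table and 381 bases in the NONO table, so these levels cannot be set against each other. H2BC5 (HIST1H2BD, chr6:26158146-26171349) was the most raised member in both experiments. It was at 4.37, 3.38 and 3.63 CPM in NC and 71.7, 71.1 and 77.2 CPM after PKM2 knockdown, 19.2-fold higher (4.27 ± 0.09). After NONO knockdown it went from 2.61, 3.00 and 3.46 CPM to 9.43, 8.54 and 9.25 CPM (1.58 ± 0.15, raised).

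H2BC11 (HIST1H2BJ, chr6:27125897-27132750) and H2BC4 (HIST1H2BC, chr6:26114873-26123926) were raised in the PKM2 experiment and showed no call in the NONO experiment. H2BC11 was at 2.84, 3.93 and 3.70 CPM in NC and 48.0, 44.3 and 50.6 CPM after PKM2 knockdown (3.78 ± 0.11). With NONO knockdown it was at 0.698, 1.63 and 0.661 CPM, against 0.954, 0.668 and 0.280 CPM in NC (0.66 ± 0.49), so the groups overlapped. H2BC4 was at 1.40, 1.55 and 1.38 CPM in NC and 17.1, 18.3 and 16.7 CPM after PKM2 knockdown (3.59 ± 0.12). With NONO knockdown it was at 1.70, 1.02 and 0.864 CPM, against 0.903, 1.19 and 2.06 CPM in NC (-0.22 ± 0.38), again with overlap. The smallest H2B value in the PKM2 experiment was that of H2BC18 (HIST2H2BF, chr1:149782689-149812373), 1.51 ± 0.36, from 0.917, 0.492 and 0.358 CPM in NC to 1.5, 1.66 and 1.85 CPM. All 8 tested H2B genes of 18 were raised in the PKM2 experiment, 2 of which (H2BC17 and H2BC18) passed the filter only through the knockdown libraries. In the NONO experiment 2 of 7 were raised, and H2BC11 passed it in that way. Of all genes tested, 33.6% were raised in the PKM2 experiment and 16.2% in the NONO experiment.

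Per length, H3 genes held the smallest share of the clustered total. H3C10 (HIST1H3H, chr6:27810064-27811300) was at 0.785, 0.635 and 0.423 CPM in NC and 2.40, 2.84 and 2.97 CPM after PKM2 knockdown (log2 fold change 2.15 ± 0.28). It was the only H3 gene tested in the NONO experiment, at 0.401, 0.62 and 0.561 CPM in NC and 0.997, 0.814 and 0.712 CPM after knockdown (0.66 ± 0.36, no call, no overlap). H3C10 passed the filter there only through the knockdown libraries, so a higher value and no overlap were favored in advance. H3C14 (HIST2H3C, chr1:149839538-149841193) and H3C15 (HIST2H3A, chr1:149852619-149854274) have identical coding sequences and were deposited with identical estimates, so they amount to a single measurement. Each was at 0.341, 0.318 and 0.265 CPM in NC and 1.88, 2.06 and 1.41 CPM after PKM2 knockdown (2.49 ± 0.33).

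H3C2 (HIST1H3B, chr6:26031650-26032060) was at 0.375, 0.397 and 0.212 CPM in NC and 0.580, 0.946 and 1.23 CPM after PKM2 knockdown (1.48 ± 0.42, raised). H3C3 (HIST1H3C, chr6:26045411-26045821) was the tested core histone gene with no call, at 0.444, 0.715 and 0.459 CPM in NC and 0.580, 0.387 and 0.595 CPM after knockdown (-0.04 ± 0.38). Summed, the H3 genes went from 2.70, 2.78 and 1.84 CPM to 7.75, 9.11 and 8.05 CPM after PKM2 knockdown, a log2 ratio of 1.77 that was the smallest of the 5 types. The H3 sum in the NONO experiment went from 1.28 ± 0.0837 to 1.95 ± 0.232 CPM (SD, n = 3).

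H4C8 (HIST1H4H, chr6:26277609-26285638) was the H4 gene with the most reads after PKM2 knockdown, and H4C14 had more in the other groups. It was at 1.40, 1.79 and 0.917 CPM in NC and 19.5, 18.6 and 19.5 CPM after PKM2 knockdown (3.82 ± 0.16). The NONO experiment had it at 1.41, 1.14 and 0.795 CPM in NC and 1.40, 1.17 and 1.73 CPM after knockdown (0.36 ± 0.31, no call, overlapping).

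H4C14 (HIST2H4A, chr1:149832659-149839767) and H4C15 (HIST2H4B, chr1:149854045-149861210) share an identical coding sequence of 312 bases. After PKM2 knockdown H4C14 went from 2.25, 1.35 and 1.53 CPM to 10, 8.33 and 11.5 CPM (2.53 ± 0.20) and H4C15 from 0, 1.39 and 0.342 CPM to 9.60, 8.30 and 8.75 CPM (4.0 ± 0.52). The copies were called in opposite directions after NONO knockdown. H4C14 went from 1.21, 1.32 and 1.86 CPM to 2.96, 2.14 and 2.49 CPM (0.77 ± 0.25, raised). H4C15 went from 0.697, 0.870 and 0.668 CPM to 0.283, 0 and 0 CPM (-2.80 ± 0.76, lowered). The H4C14 call was lost without knockdown replicate 1 (0.65), knockdown replicate 3 (0.78), NC replicate 1 (0.66) or NC replicate 2 (0.71), and the H4C15 call without knockdown replicate 2 or 3 (-2.25 each). The size of the H4C15 values also rested on single libraries, at -6.92 without NONO knockdown replicate 1 and at 3.38 and 5.64 without NC replicates 1 and 2 of the PKM2 experiment. Their sum in the NONO experiment, 2.21 ± 0.309 CPM in NC and 2.62 ± 0.564 CPM after knockdown (SD, n = 3), had overlapping groups. Their sum in the PKM2 experiment went from 2.29 ± 0.436 to 18.8 ± 1.94 CPM, a log2 ratio of 3.04.

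The smallest H4 value in the PKM2 experiment was that of H4-16 (HIST4H4, chr12:14767999-14771131), at 0.171, 0.477 and 0.106 CPM in NC and 0.703, 0.645 and 0.436 CPM after knockdown. Its call (1.26 ± 0.52) was lost without knockdown replicate 1 (1.13), knockdown replicate 2 (1.21), NC replicate 1 (1.05) or NC replicate 3 (0.89), it was 2.06 without NC replicate 2, and its groups overlapped. All 5 tested H4 genes of 15 were raised, but 3 of them (H4C9, H4C15 and H4-16) passed the filter only through the knockdown libraries and were bound to be higher there. Of all genes tested, 33.6% were raised. The H4 sum went from 4.98, 5.68 and 3.78 CPM to 41.1, 36.8 and 42.0 CPM. The H4 sum in the NONO experiment, 4.22 ± 0.361 CPM in NC and 4.70 ± 0.483 CPM after knockdown (SD, n = 3), overlapped.

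**Figure D3:**
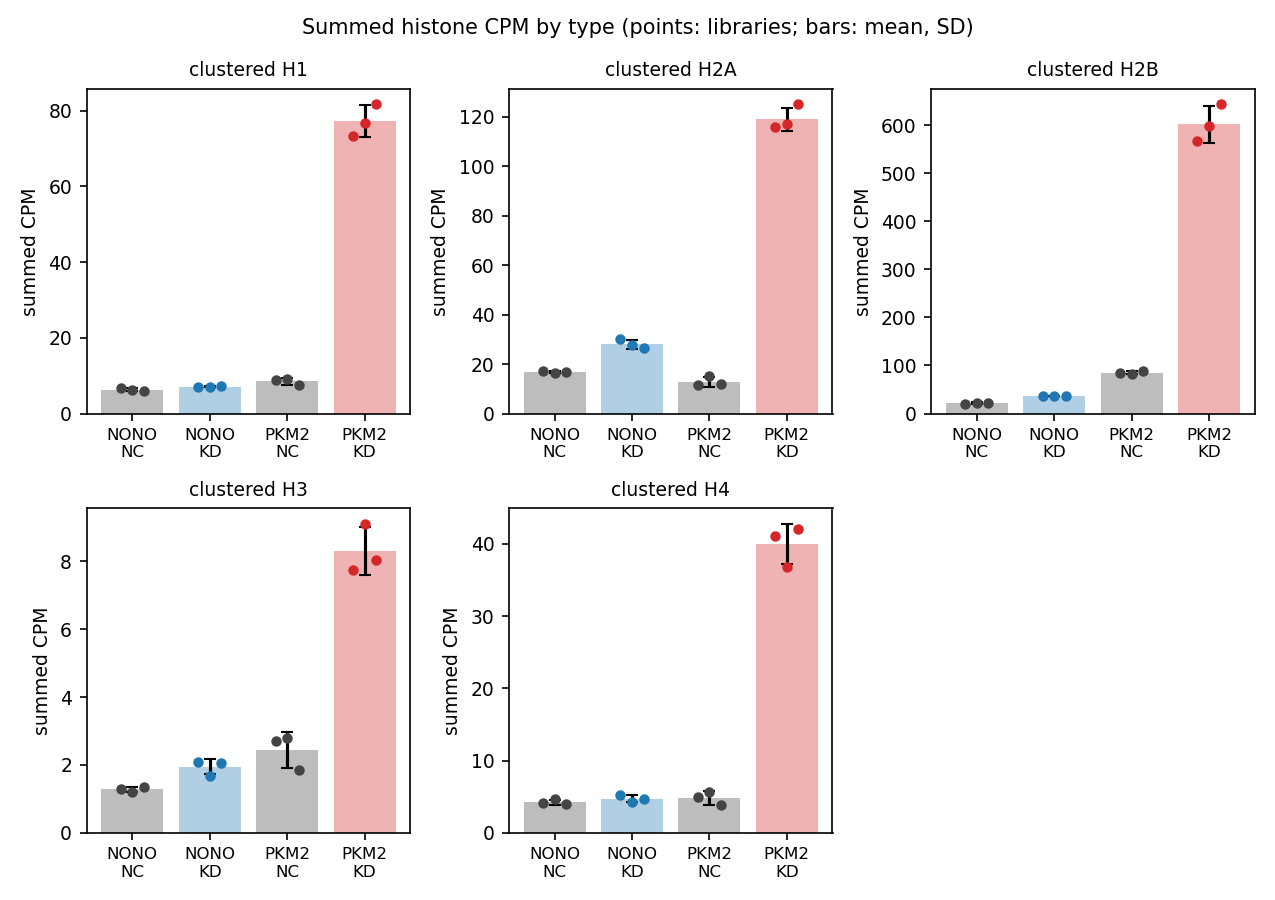
Summed CPM (linear axes from 0) of the clustered members of each histone type, with 1 point per library, bars at the mean and error bars of 1 SD. After PKM2 knockdown every clustered type lies above its NC libraries, from a log2 ratio of 1.77 for H3 to 3.22 for H2A. After NONO knockdown H1, H2A, H2B and H3 lie above their NC libraries while H4 overlaps.

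By type, the sums after PKM2 knockdown stood at log2 ratios of 3.22 for H2A, 3.19 for clustered H1, 3.05 for H4, 2.82 for H2B and 1.77 for H3. After NONO knockdown the same ratios were 0.79 for H2B, 0.73 for H2A, 0.60 for H3, 0.18 for clustered H1 and 0.15 for H4. The order depended on the unit. With summed TPM in place of CPM, H4 was at 2.19 after PKM2 knockdown, below H2B at 2.65, and H3 at 1.07, and after NONO knockdown H3 was at 0.095 with overlapping groups. In CPM, H2A in that experiment went from 16.9 ± 0.408 to 28.0 ± 1.90 CPM and H2B from 21.2 ± 1.87 to 36.5 ± 0.714 CPM (SD, n = 3). By cluster, 14 of 16 tested members of cluster 1 and 8 of 8 of cluster 2 were raised after PKM2 knockdown, of which 3 in cluster 1 and 4 in cluster 2 passed the filter only through the knockdown libraries. Over all genes tested, 33.6% were raised. Cluster 1 summed to 104 CPM in NC and 754 CPM after knockdown, and cluster 2 to 9.50 and 92.5 CPM. Under NONO knockdown, 3 of 10 tested members of cluster 1 were raised, and 2 of 6 of cluster 2 were raised and 1 lowered. Over all genes tested there, 16.2% were raised and 17.2% lowered. In cluster 1, H2BC11 and H3C10 passed that filter only through the knockdown libraries. The lowered member of cluster 2, H4C15, passed it only through the NC libraries. No member of cluster 3 passed the filter in either experiment.

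The knockdowns were set against each other by testing the PKM2 effect minus the NONO effect, each against its own NC. The gene models of 40 of the 74 members differ in length between the experiments, so their effects may cover different stretches of a transcript. The models of H2BC12 are 381 bases (NONO) and 495 bases (PKM2), and those of H1-2 are 642 and 731 bases. The part of this in the differences was not tested. Of the 27 members tested, 19 had a higher effect in the PKM2 experiment, 1 a lower effect and 7 no call, while 53.1% of the 15995 genes tested were called, 25.7% higher and 27.4% lower. Of those that passed the filter of the PKM2 experiment, 8 did so only through knockdown libraries, H3C14, H3C15 and H4C15 among them. H1-4 and H3C3 did so only through NC libraries. The test was thus favored toward a higher effect for the 8, and no count was made without them. The median difference over the members was 1.99 on the log2 scale. Among the 5 members raised in both experiments, the difference was 1.80 for H2BC12, 2.67 for H2BC5, 1.99 for H2AC6, 2.97 for H2AC19 and 1.75 for H4C14, and each was called higher. For H1-2 it was 3.06. For H3C14 and H3C15 it was called higher, but the call was lost in 8 of the 12 fits that left out 1 library, with values from 1.34 to 1.83 over the 12. H4C15, at 6.78, had the largest value, which was 11.1 without NONO knockdown replicate 1 and 8.44 and 6.16 without NC replicates 2 and 1 of the PKM2 experiment, and which rests on how reads were split with its identical copy H4C14. Because the PKM2 contrast chose the members, these differences are likewise a description.

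**Figure D4:**
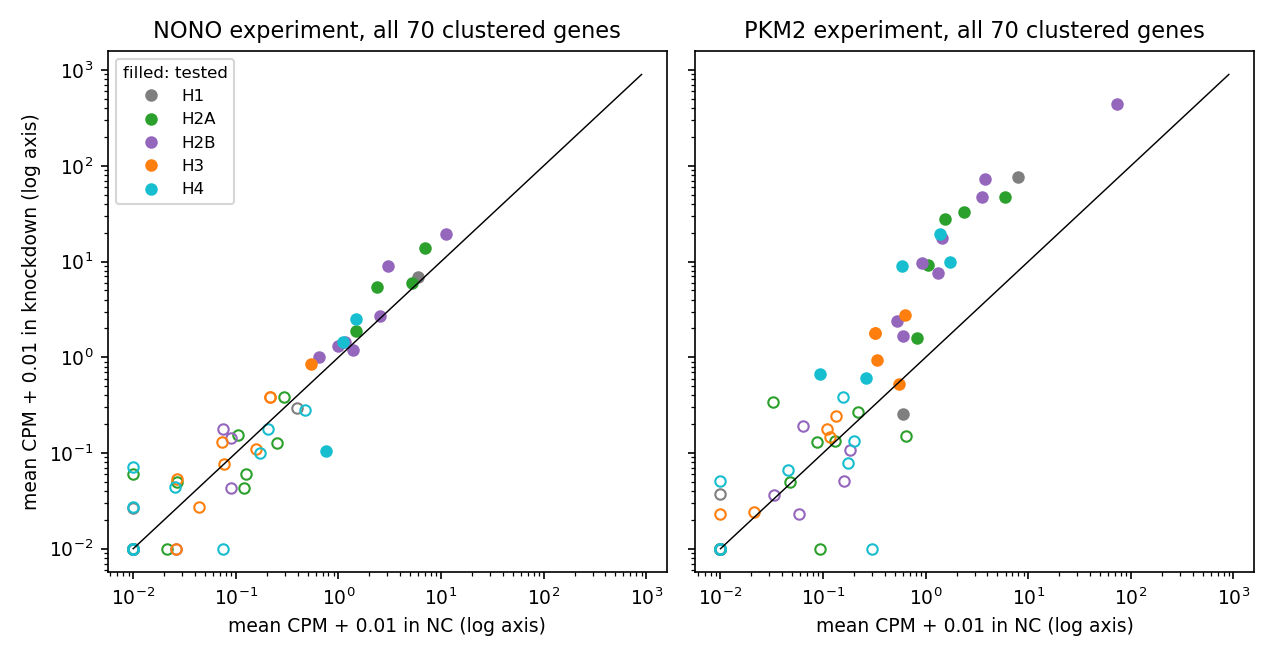
The 70 clustered members with the mean CPM of NC against knockdown libraries (log axes), 1 panel per experiment, colored by histone type, filled where tested, after adding 0.01 CPM. In the PKM2 panel the raised members lie above the line of equal level by up to 19.2-fold, and the untested members lie under 1 CPM on both axes in both panels.

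The annotated transcript ends of the 70 clustered members fell into 3 groups. For 22 members an annotated GENCODE 29 transcript passes the stem-loop by at least 100 bases, for 9 it contains the stem-loop and ends within 100 bases, and for 39 no stem-loop was matched in an annotated transcript. Every annotated transcript of 32 of these 39 is coding sequence only, so a stem-loop past the coding end could not be found there. Of the 32, 6 were tested in the PKM2 experiment. The missing match is thus no evidence that these genes lack a stem-loop. After PKM2 knockdown 14 of the 22 extended members were tested and raised, but 6 of these passed the filter only through the knockdown libraries, so the 3 groups cannot be compared by these counts. The 3 tested members with a transcript that ends near the stem-loop were H2AC18, H2AC19 and H2BC5, at 3.82 to 4.27. All 3 also had AATAAA or ATTAAA within the last 40 bases of an annotated transcript. H2BC5 has 2 annotated transcripts, and the longer, of 789 bases, matches the length of its model in both experiments. Its gene runs to position 26171349, past the stem-loop at 26158587-26158602. Of the 8 tested members without a stem-loop in a transcript, 6 were raised, 2 of them admitted only through the knockdown libraries, and 1 was lowered. Over all genes tested, 33.6% were raised and 34.7% lowered. H2AC6 extends 1128 bases past its stem-loop, H2AC11 1761, H4C8 1655 and H2BC4 116. At the extended end of 15 members, AATAAA or ATTAAA stood within the last 40 bases. Whether the reads came from the extended transcripts was not tested, since the tables hold 1 value per gene.

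Model length went along with which members could be tested. The clustered members tested in the PKM2 experiment had a median model length of 787 bases (range 397 to 4137), and the 45 not tested a median of 500 bases. Among all genes with models under 1000 bases, 57.3% of 1498 were called in the PKM2 experiment, 34.8% raised, with a median log2 fold change of 0.11. Among such genes in the NONO experiment, 27.4% of 1232 were called, 15.6% raised, with a median of 0.03. The part of length in the members' values was not tested.

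Upstream, 64 members matched a RefSeq promoter of 250 bases before to 50 after the start, 61 of them clustered. The octamer ATTTGCAT, on either strand, stood in 10 of 14 H2A and 14 of 17 H2B promoters, in 1 of 12 H3 promoters and in no H1 or H4 promoter, against 1.77% of all 34943 promoters. That H3 promoter was the entry of H3C4 (chr6:26199244-26199543). It adjoins the H2A gene H2AC7 (chr6:26198851-26199243) and lies outside H3C4 in GENCODE 29 (chr6:26196840-26197250), so it may not be an H3 promoter. Where members start close together on opposite strands, their promoter stretches overlap, and 1 motif site can be counted for both genes. The octamer at -130 of H2AC6 and that at -123 of H2BC4, for example, are the same site. The H2A and H2B counts are thus not counts of separate sites. CCAAT stood in every H1, H2A, H2B and H3 promoter and in 3 of 12 H4 promoters, against 34.6% of all, and the H1 box AAACACA in all 6 H1 promoters, 1 H2A and 2 H3 promoters, against 5.66%. TATAAA was found in 3 of 6 H1, 12 of 14 H2A, 12 of 17 H2B, 9 of 12 H3 and 6 of 12 H4 promoters, against 11.6%. Not every match lay where a TATA box of that gene would be. The only TATAAA of H2BC4 (-220), H2BC14 (-219) and H2BC17 (-214) was the site at -31 of H2AC6, H2AC14 and H2AC17, respectively. Tested H2A and H2B genes with the octamer had log2 fold changes of 0.96 to 3.12 and 1.51 to 3.78 after PKM2 knockdown, and those without it were H2AC18 (3.82), H2AC19 (4.18), H2BC15 (3.41) and H2BC5 (4.27). These are matches of letters, and no site was tested.

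Many H2A and H2B genes lie head to head and share the sequence between their starts. Of 11 such pairs of members with starts under 1000 bases apart, 9 joined an H2A to an H2B gene, and in 3 pairs both genes were tested in the PKM2 experiment. Another pair, H3C4 with H2BC7, rests on the H3C4 entry that adjoins H2AC7. H2BC4 and H2AC6, 246 bases apart, had log2 fold changes of 3.59 and 3.00, H2BC11 and H2AC11, 248 bases apart, 3.78 and 3.12, and H2BC17 and H2AC17, 240 bases apart, 2.19 and 0.96. All 6 of these genes were raised, as were 33.6% of all genes tested. H2BC17 passed the filter only through the knockdown libraries, so it was bound to be higher there. The first pair split after NONO knockdown, at -0.22 for H2BC4 and 1.00 for H2AC6. H2BC21 was raised after PKM2 knockdown at 2.53, while its partner at 236 bases, H2AC20, was not tested and stood lower after knockdown. H2AC20 was at 1.02, 0.367 and 0.529 CPM in NC and 0.0833, 0.216 and 0.119 CPM after PKM2 knockdown, without overlap, a mean of 18.1 against 3.35 estimated counts.

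The genes that act on histone mRNAs were followed as a fixed list. Of 22 genes of histone mRNA processing, 10 were raised and 6 lowered after PKM2 knockdown (median 0.10), and 5 were raised and 2 lowered after NONO knockdown (median 0.03). The shares called, 72.7% and 31.8%, lie near the 68.4% and 33.4% of all genes tested. SLBP was at 188, 173 and 178 CPM in NC and 145, 150 and 172 CPM after PKM2 knockdown, and fell by 0.20 ± 0.07 on the log2 scale (adjusted p = 0.0154), a call lost without knockdown replicate 1 (-0.15), knockdown replicate 2 (-0.17) or NC replicate 1 (-0.17). NPAT, at 46.3, 54.4 and 49.2 CPM in NC and 66.4, 63.0 and 57.9 CPM after knockdown, rose by 0.32 ± 0.07 (adjusted p = 0.00194). CASP8AP2 fell by 0.84 ± 0.11 (adjusted p = 3.1e-05), and MIF4GD, an SLBP-interacting protein, by 1.25 ± 0.09 (adjusted p = 2.17e-07). ZNF473 and CPSF3 each rose by 0.91 (SE 0.08 and 0.05, adjusted p = 9.61e-07 and 2.67e-08). After NONO knockdown, LSM11 fell by 0.39 ± 0.09 (adjusted p = 0.00649) and LSM10 by 0.28 ± 0.10 (adjusted p = 0.0497), and CPSF3 rose by 0.20 ± 0.05 (adjusted p = 0.0135). The LSM10 call was lost without knockdown replicate 1 (-0.20) or 3 (-0.29) or NC replicate 1 (-0.18) or 3 (-0.30), and the CPSF3 call without knockdown replicate 2 or NC replicate 3 (0.18 each). SLBP (-0.13), NPAT (-0.00), CASP8AP2 (-0.03) and ZNF473 (0.10) were not called there, and neither LSM10 (-0.20) nor LSM11 (0.04) was called in the PKM2 experiment, although LSM10 was called at -0.28 without PKM2 knockdown replicate 3.

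Among the replacement histones, whose genes give polyadenylated mRNAs outside S phase, 7 of 8 tested were raised and 1 lowered after PKM2 knockdown (median 0.39), and 4 were raised and 1 lowered after NONO knockdown (median 0.15). Of all genes tested, 33.6% were raised and 34.7% lowered after PKM2 knockdown, and 16.2% and 17.2% after NONO knockdown. H2AX, the variant phosphorylated at DNA breaks, whose transcript can also end in a stem-loop, was at 126, 125 and 131 CPM in NC and 325, 368 and 392 CPM after PKM2 knockdown, and rose by 1.5 ± 0.07 (adjusted p = 3.33e-09). H2AZ1 rose by 0.43 (adjusted p = 8.58e-06), H3-3A by 0.46 (adjusted p = 3.15e-05) and CENPA, the centromeric H3, by 0.66 (adjusted p = 2.41e-05). Under NONO knockdown, H2AX rose by 0.28 (adjusted p = 0.00547) and CENPA by 0.52 (adjusted p = 0.000642), while H2AZ1 and H3-3A were not called there but were without NC replicate 1 (0.15 and 0.22). Of the 21 histone chaperone genes, 13 were raised and 2 lowered after PKM2 knockdown and 8 raised and 1 lowered after NONO knockdown. The shares called were 71.4% and 42.9%, against 68.4% and 33.4% of all genes tested. SUPT16H, a subunit of the FACT complex, had the largest value of these in the PKM2 experiment, 1.11 (adjusted p = 2.05e-09). The H3-H4 chaperone ASF1A rose by 0.48 (adjusted p = 6.35e-05) after PKM2 knockdown and fell by 0.34 (adjusted p = 0.00793) after NONO knockdown, and MCM2 rose by 0.49 (adjusted p = 3.11e-05) after NONO knockdown, with a value of 0.05 after PKM2 knockdown (adjusted p = 0.321).

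After PKM2 knockdown 12 of 43 S phase genes were raised and 21 lowered (median -0.12), which is 27.9% and 48.8%, where 33.6% and 34.7% of all genes tested were raised and lowered. PCNA, the sliding clamp of DNA replication, was at 135, 134 and 132 CPM in NC and 28.3, 29.2 and 34.4 CPM after knockdown, and fell by 2.12 ± 0.07 (adjusted p = 4.98e-10). TYMS, which makes thymidylate, fell by 1.45 (adjusted p = 1.03e-09), the S phase cyclin CCNE2 by 1.76 (adjusted p = 3.33e-09) and the transcription factor E2F8 by 2.73 (adjusted p = 5.77e-10). After NONO knockdown 22 of the 43 were raised and 3 lowered (median 0.18), which is 51.2% and 6.98%, against 16.2% and 17.2% of all genes tested, with PCNA up by 0.39 (adjusted p = 0.000121), TYMS by 0.28 (adjusted p = 0.00374) and E2F8 by 0.46 (adjusted p = 0.000696). CCNE2 was not called there. Its values lay from -0.44 to -0.11 in the fits that left out 1 library, and it was called lowered without NC replicate 2. The part of the cell cycle in the members' values was not tested.

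Other RNAs that lack a poly(A) tail were listed to see whether RNAs of that kind were captured more in 1 group. Of the 16 listed, 7 passed the filter in the PKM2 experiment, with none raised and 2 lowered (median -0.44). The share lowered was 28.6%, where 33.6% of all genes tested were raised and 34.7% lowered. With so few RNAs past the filter, a difference in capture was not tested. TERC, the telomerase RNA, was at 2.53, 2.03 and 3.25 CPM in NC and 0.560, 0.708 and 0.575 CPM after PKM2 knockdown, and fell by 2.06 ± 0.28 (adjusted p = 4.07e-05). SNORD3A, the U3 snoRNA, fell by 1.43 ± 0.48 (adjusted p = 0.019), a call lost without knockdown replicate 1 (-1.27), knockdown replicate 2 (-1.29) or NC replicate 1 (-0.74). Of the same list, 4 passed the filter in the NONO experiment and none was called by edgeR or DESeq2, with 1 at an unadjusted p under 0.05 in edgeR and 1 called by limma on log2(TPM + 1). Among all genes tested in that experiment, edgeR called 33.4%. TERC was called raised there by edgeR without NC replicate 1 (1.14).

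**Figure D5:**
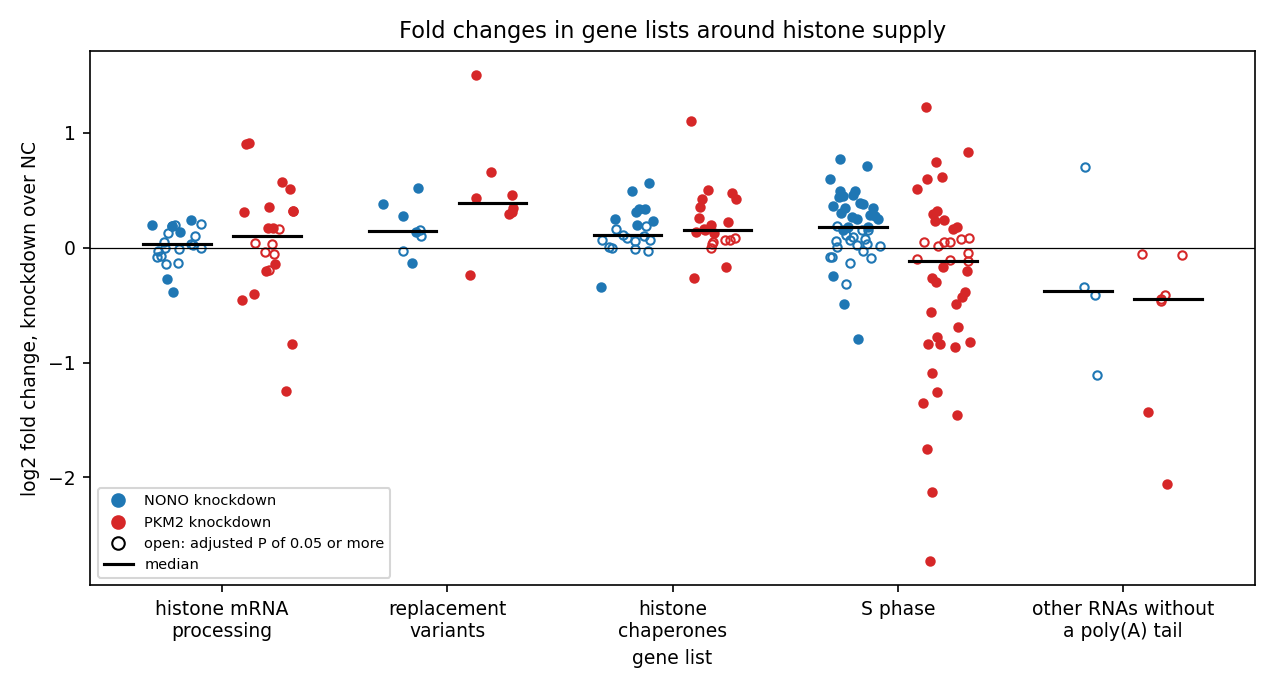
Log2 fold change of each tested gene (points) and the median (line) for the 5 fixed lists, after NONO and after PKM2 knockdown, filled where called. The medians lie between -0.44 and 0.39, and the lowest values after PKM2 knockdown are those of S phase genes, down to -2.73.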

How the data were processed

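RNA of 12 MDA-MB-231 samples was sequenced after poly(A) selection. The submitters' processing notes name fastp, HISAT2, StringTie, RSEM, DESeq2, edgeR and limma and the build hg19, with no versions. Kit strandedness is not given in the sources used here. The authors deposited 1 table per experiment with the estimated counts per gene and library, made by their read-counting program and not whole numbers. The authors also deposited TPM values, in which those counts are scaled by gene length and library. The tables also hold group means, fold changes, p-values and calls of the authors' own comparisons, which were not used. Groups and replicates came from the sample titles.

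Estimated counts were rounded to whole numbers and tested over all genes of each table with edgeR 4.0.16 (R 4.3.3) by its quasi-likelihood test, after TMM scaling and filterByExpr, knockdown against its own NC. The difference between knockdowns was an interaction term over the 12 libraries, with genes joined by identifier. Genes with a Benjamini-Hochberg adjusted p under 0.05 were called raised or lowered. CPM are TMM-scaled. Depth was 19861762 to 28455268 estimated counts per library, so a gene under the filter was not measurable here. Sums were taken over all members of a type, without a test. DESeq2 1.42.0 and limma 3.58.1 (log2(TPM + 1) or log2(TPM + 0.1), mean TPM of at least 1 or no filter), RLE scaling, no low-count filter, a replicate block, summed TPM and leaving out each library were the alternatives. On simulated counts with 200 genes changed 4-fold, edgeR recovered 192 (NONO, 14832 genes), 192 (PKM2, 15524 genes) and 169 (difference, 15995 genes).

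Named for each type were the 4 tested members with the highest mean CPM, the highest and lowest fold change and every lowered or oppositely called member, except for 1 gene that is not reported here. Named from the lists were 6 fixed genes and up to 4 per list with the largest change among those called. H2BC15, H2BC17, H2BC21, H2AC20 and H4C9 are mentioned outside this rule, chosen after their values were seen. The members and lists were chosen with earlier results of these data known. Positions are those of GENCODE 29 (GRCh38), and promoters are from RefSeq (GRCh38.p14).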

Additional observations from a re-analysis of the deposited data

Results flagged for a closer look

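For H1-10 and H4C15, every knockdown library lay on 1 side of its own NC mean in the NONO experiment and on the other side in the PKM2 experiment. The difference of effects was 0.94 for H1-10 and 6.78 for H4C15, and the edgeR interaction test called both (adjusted p = 0.000155 and 7.05e-05). Because the members were chosen on these contrasts, this is a description. For H1-10 the log2 fold change was -0.80 after NONO knockdown, and 0.15 after PKM2 knockdown, which was not called. For H4C15 it was -2.80 after NONO knockdown and 4.0 after PKM2 knockdown, at under 1 CPM in every library of the NONO experiment and with an identical coding copy, H4C14. H4C15 passed the filter only through NC libraries in the NONO experiment and only through knockdown libraries in the PKM2 experiment, which favored opposite values.

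Among the list genes, the PKM2 effect minus the NONO effect differed by the interaction test (edgeR quasi-likelihood test, adjusted p under 0.05 over all genes) for 18 of those named. Of all 15995 genes tested, 53.1% were called. Apart from 6 fixed genes, the named ones were picked for large called changes, which favored a high count. Over whole lists, 6 of 22 processing genes were called higher and 4 lower, and 5 of 8 replacement variants higher and 1 lower. Of 21 chaperones 6 were higher and 3 lower, and of 43 S phase genes 6 were higher and 22 lower. In histone mRNA processing the log2 difference was 0.80 for ZNF473, 0.69 for CPSF3, 0.41 for LSM11 and 0.31 for NPAT, and it was -0.83 for CASP8AP2 and -1.31 for MIF4GD. Among replacement variants it was 1.22 for H2AX, 0.32 for H2AZ1 and 0.29 for H3-3A. Among chaperones it was 0.81 for ASF1A, 0.53 for SUPT16H, 0.38 for HAT1 and -0.45 for MCM2. Among S phase genes it was -3.20 for E2F8, -2.53 for PCNA, -1.75 for TYMS and -1.45 for CCNE2. For TERC, an RNA without a poly(A) tail, it was -2.78. No explanation of these differences was tested.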

How the results depend on the processing

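No called value changed direction under any alternative that was run. Of values without a call, 5 of clustered members (H2AC18 and H2BC4 after NONO knockdown, H3C3 after PKM2 knockdown, and the differences of H2AC17 and H3C3) and 5 of list genes changed sign in at least 1 alternative. The named genes and members gave 1665 values on the same side of the threshold, 84 no longer past it and 23 newly past it. After NONO knockdown limma called 3 members raised under all 3 of its settings, against 5 by edgeR, and DESeq2 called 1 lowered, against 2 (DESeq2 gave H4C15 no adjusted p). The difference test without a low-count filter called 2 members lower, against 1. The median log2 fold change of members after NONO knockdown was 0.19 by limma on log2(TPM + 0.1), 0.14 on log2(TPM + 1) and 0.10 without a filter. After PKM2 knockdown the median was 2.42, 1.76 and 0.29 in the same settings, 1.35 by DESeq2 and 1.46 in edgeR without a low-count filter. The last 3 took in 52 members, against 27, many of them with almost no reads. Summed TPM in place of CPM gave log2 ratios of 0.45 for H2A and 0.095 for H3 after NONO knockdown, and 2.65 for H2B, 1.07 for H3 and 2.19 for H4 after PKM2 knockdown. The cause was not tested. Of the lists after NONO knockdown, limma on log2(TPM + 0.1), on log2(TPM + 1) and without a filter called 1, 1 and 0 histone processing genes, 2, 2 and 1 replacement variants, and 14, 14 and 11 S phase genes, against 7, 5 and 25 by edgeR. Without a filter limma called 4 chaperones, against 9. Of the other RNAs without a poly(A) tail, limma called 1 in both filtered settings after NONO knockdown, and edgeR without a low-count filter called 4 after NONO and 4 after PKM2 knockdown. The replicate numbers did not pair the samples, since same-numbered NC and knockdown libraries had correlations of deviations from -0.07 to 0.04. With a replicate block the NONO fit called 4 members raised and 2 lowered, 4 processing genes and 3 replacement variants, and the PKM2 fit called 23 members raised and 1 lowered. Leaving out 1 library at a time, the NONO fit called 3 to 5 members raised and 1 to 3 lowered (median 0.21 to 0.53), and the PKM2 fit 22 to 23 raised and 1 to 3 lowered (median 2.44 to 2.79). The difference test called 17 to 20 members higher and 1 lower. In the lists the NONO fits called 2 to 10 processing genes, 3 to 7 replacement variants, 8 to 15 chaperones, 22 to 33 S phase genes and 0 to 2 other RNAs, and the PKM2 fits 14 to 17, 8, 11 to 16, 31 to 37 and 1 to 5. Without NC replicate 1 of the NONO experiment, 4 members were raised and 3 lowered (median 0.46), with 15 chaperones and 33 S phase genes. HAT1, with no call after NONO knockdown, was called raised without that library (0.16), and CCNE2 was called lowered without NC replicate 2 (-0.44). Without PKM2 knockdown replicate 3, 23 members were raised and 3 lowered (median 2.60), with 5 other RNAs. Counts under the filter limit what can be said of 47 members.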
